A study of Mus musculus with 8 samples.

Results

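The genes described here are 39 interferon-stimulated genes, measured in whole gastrocnemius, a fast-twitch calf muscle, of C57BL/6 mice. They were chosen by gene symbol, with earlier results of these data known, so their shares beside all genes are descriptions and not tests. All 39 were found by Ensembl identifier among the 49315 genes counted. RNA of flash-frozen muscle was sequenced at 4 ages, 3 months, 12 months, 24 months and 30 months, with 2 libraries per age and no treatment or genetic change named for any of them. The labels call the libraries replicates and do not say whether each is another animal. The p-values therefore measure the spread between libraries, which may be technical. The labels do not give the sex of the mice or the number of animals behind a library. The comparisons ask how the level of these genes differed between ages, and how much of each difference rested on 1 library.

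Interferons are secreted proteins that warn cells of infection. Type I interferons act through a receptor made of IFNAR1 and IFNAR2 and the kinases JAK1 and TYK2, which lead a complex with STAT2 and IRF9 to bind interferon-stimulated response elements in DNA. Interferon gamma acts through another receptor and leads to binding at gamma-activated sites. The genes switched on in these ways encode sensors of foreign nucleic acid, enzymes that degrade or block viral RNA, GTPases that attack vacuoles holding microbes, and the signalling proteins themselves, so that the response feeds back on itself. Muscle fibres and the macrophages, vessel cells and other cells between them can all respond. In whole muscle, more cells of a type and more RNA per cell cannot be told apart.

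Promoter windows in the RefSeq-based table for build GRCm38.p6, running from 250 bases before to 50 bases after a start, were matched for 28 of the 39 genes. A core of the interferon-stimulated response element, searched as GAAA followed after any 2 bases by GAAA again, on both strands, stood in a window of 18 of the 28 genes (64.3%), against 1079 of all 27025 genes with a window (3.99%). The core of a gamma-activated site, searched as TTCNNNGAA on both strands, stood in 7 of the 28 (25%), against 9.55% of all genes. Such a match is a description of the letters and not a bound site. In the windows of Irf7 and Ifi44 neither match was found. The 4 windows below belong to genes whose values differ most in kind in what follows: Isg15 was high in 1 library of 30 months, Ifit3 and Ifit3b are neighbouring copies that parted in that library, and Igtp was high in both libraries of 30 months. Each is written 5′ to 3′ on the strand of its gene, and capitals mark the letters of a response element match. The Isg15 window is chr4:156200769-156201068 on the minus strand, with 3 overlapping matches, the nearest beginning 66 bases before the start. Ifit3 (chr19:34583279-34583578, plus strand) and Ifit3b (chr19:34607707-34608006, plus strand) each hold 2 matches, the nearest beginning 122 and 154 bases before the start. Igtp (chr11:58199306-58199605, plus strand) holds 1, beginning 34 bases before the start, and 1 gamma-activated site core that does not overlap it.
Isg15: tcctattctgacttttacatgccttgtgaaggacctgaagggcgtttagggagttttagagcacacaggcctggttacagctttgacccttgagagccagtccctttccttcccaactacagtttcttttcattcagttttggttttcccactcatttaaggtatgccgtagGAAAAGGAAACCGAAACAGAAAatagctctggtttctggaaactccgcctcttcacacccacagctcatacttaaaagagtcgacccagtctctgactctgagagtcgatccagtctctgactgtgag
Ifit3: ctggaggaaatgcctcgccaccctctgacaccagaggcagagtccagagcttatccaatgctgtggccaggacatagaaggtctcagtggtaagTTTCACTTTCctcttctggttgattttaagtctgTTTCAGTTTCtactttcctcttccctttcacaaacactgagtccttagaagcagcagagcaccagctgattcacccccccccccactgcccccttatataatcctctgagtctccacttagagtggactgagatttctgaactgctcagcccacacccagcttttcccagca
Ifit3b: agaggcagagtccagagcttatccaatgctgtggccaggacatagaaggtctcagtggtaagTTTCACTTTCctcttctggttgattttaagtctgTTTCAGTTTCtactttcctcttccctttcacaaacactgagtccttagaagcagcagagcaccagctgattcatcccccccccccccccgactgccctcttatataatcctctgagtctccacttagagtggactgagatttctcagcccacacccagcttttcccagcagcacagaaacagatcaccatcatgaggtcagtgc
Igtp: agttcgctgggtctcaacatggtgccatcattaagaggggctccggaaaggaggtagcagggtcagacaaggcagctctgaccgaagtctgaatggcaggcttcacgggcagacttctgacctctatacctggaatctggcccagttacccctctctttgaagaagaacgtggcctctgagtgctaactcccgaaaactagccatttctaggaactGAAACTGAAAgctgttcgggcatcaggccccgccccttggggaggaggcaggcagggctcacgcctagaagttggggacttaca

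Depth was even across the series, with 42404254 to 59245029 counted reads per library, so that 3 reads correspond to 0.0506 to 0.0707 CPM, the count of a gene scaled to a common library size. The lowest count of any of the 39 genes in any library was 11. Muscle transcripts were abundant: 8 fibre genes such as Ckm, Acta1 and Ttn summed to 220031 to 369717 CPM. Summed levels of 9 kidney genes were 3.5 to 36.2 CPM in 5 libraries, namely both of 3 months, replicate 1 of 12 and of 24 months and replicate 2 of 30 months, against 0.682 to 0.761 CPM in the other 3. These 5 and 3 libraries are treated as sets below. Both libraries of 3 months are in the larger set, so a difference from 3 months and a difference between sets cannot be told apart in the smaller one. Counts of the 2 libraries of an age differed by more than counting noise, with chi-square values of 47.4 to 117 times their degrees of freedom, which does not show whether they share an animal or RNA.

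The 39 genes stood out in 1 library. Replicate 2 of 30 months held the highest level of 34 of the 39 genes (87.2%), against 16.5% of all 19571 genes tested. Their median level there was 0.98 above that of 3 months on the log2 scale, and 26 of the 39 (66.7%) were more than 1.5 times as high as at 3 months, against 10.9% of all genes. In replicate 1 of 30 months the median was -0.028, and 2 genes were more than 1.5 times as high. The medians were -0.23 and -0.090 in replicates 1 and 2 of 12 months, and 0.14 and 0.083 in those of 24 months. Over all genes tested, the median lay between -0.010 and 0.015 in every library. Thus 1 library of 30 months was high and the other lay among the younger libraries.

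**Figure D1:**
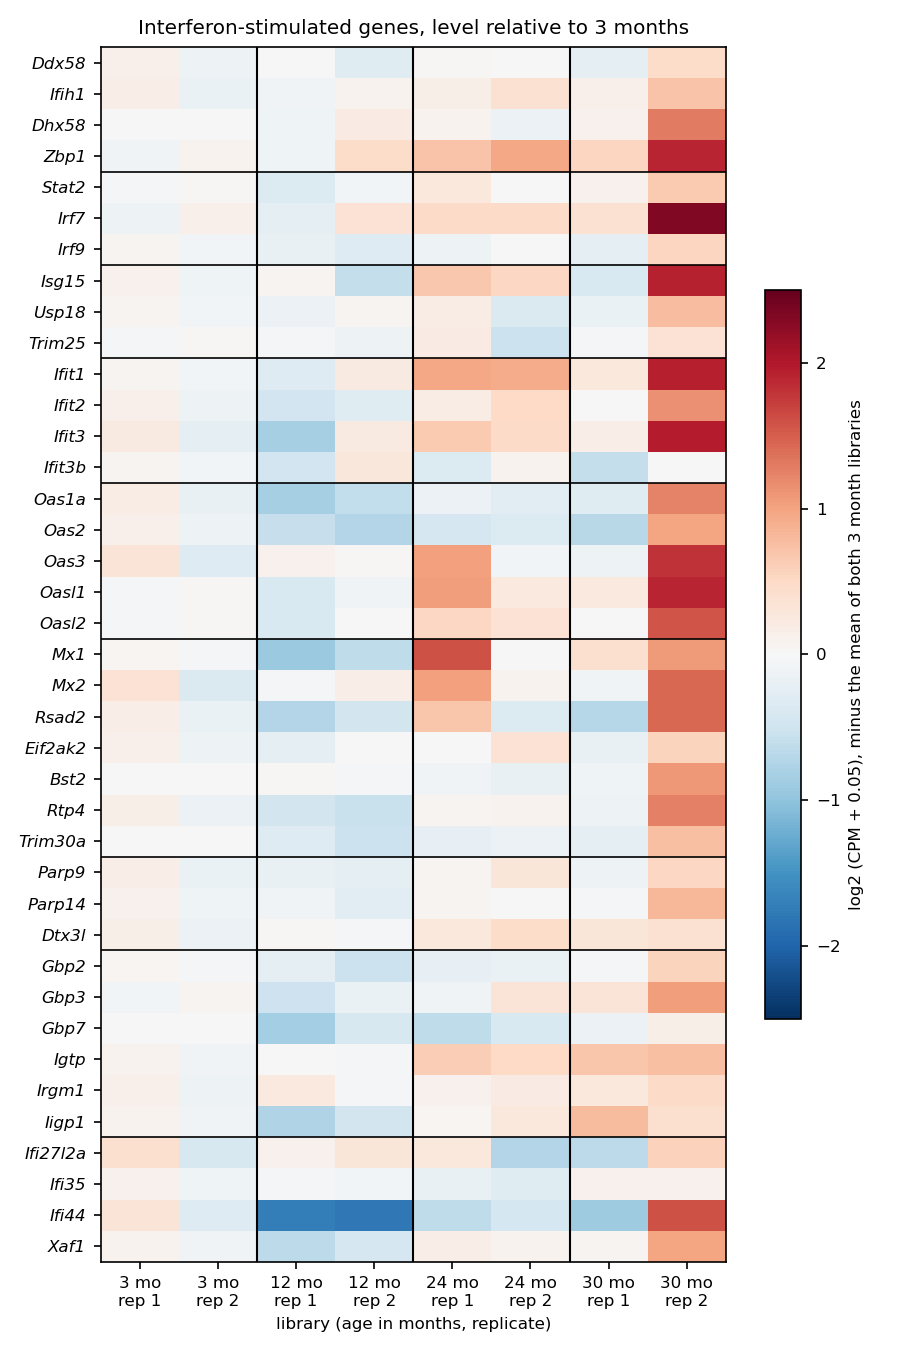
Level of each of the 39 genes (rows, grouped by role from sensors at the top to other interferon-induced genes at the bottom) in the 8 libraries (columns), as log2 of CPM plus 0.05 minus the mean of both 3 month libraries. The column of replicate 2 of 30 months is red in nearly every row, with a median of 0.98, and the 12 month columns are mostly pale blue, with medians of -0.23 and -0.090.

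In the sentences below, levels are CPM scaled by the trimmed mean of M-values (TMM), with replicate 1 before replicate 2 at each age. The genes given with all their values are the 2 with the highest mean CPM in each role, the 6 with the widest ratio between the libraries of 30 months, and Ifit3 with Ifit3b. Ifit1, Igtp and Iigp1, also given in every library, and other genes described with values were chosen after their values were seen. Per kilobase of transcript, mean levels ran from 0.0576 CPM for Oas3 to 21.9 CPM for Ifi27l2a.

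Among the sensors, all 4 were highest in replicate 2 of 30 months. Ifih1, which encodes MDA5, a cytoplasmic sensor of long viral RNA, was at 9.25 and 7.40 CPM at 3 months, 7.77 and 8.76 at 12, 9.12 and 10.7 at 24, and 9.10 and 13.6 at 30 months. Ddx58, which encodes the RNA sensor RIG-I, was at 6.98 and 5.86 CPM at 3 months, 6.31 and 5.15 at 12, 6.53 and 6.37 at 24, and 5.38 and 8.83 at 30 months. For both genes the libraries of 30 months lay on either side of those of 3 months or overlapped them, so the ages were not separated. The sensors with less transcript per kilobase stood further apart. Dhx58, which encodes LGP2, a partner of both, was at 2.35 CPM in replicate 2 of 30 months, against 0.838 to 1.07 CPM in the other 7 libraries. Zbp1, a sensor of left-handed nucleic acid that can trigger necroptosis, was at 1.95 CPM there and at 0.448 to 0.994 CPM elsewhere.

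The transcription factors of the pathway followed, and of the 39 genes Irf7 had the largest fitted log2 fold change between 30 and 3 months, 1.67. IRF7 is the factor that drives most interferon alpha genes and is itself induced by interferon. Irf7 was at 2.29 and 2.71 CPM at 3 months, 2.12 and 3.22 at 12, 3.47 and 3.47 at 24, and 3.25 and 12.6 at 30 months. The last value was 3.63 times the highest of the other 7, which spanned only 2.12 to 3.47 CPM. Its level averaged 7.92 ± 6.61 CPM at 30 months, against 2.5 ± 0.295 CPM at 3 months (SD, n = 2 each). Stat2 and Irf9, which encode 2 parts of the complex that binds the response element, had the same high library with smaller gaps. Stat2 was at 6.85 and 7.16 CPM at 3 months, 5.53 and 6.69 at 12, 8.39 and 7.01 at 24, and 7.54 and 11 at 30 months. Irf9 was at 8.08 and 7.27 CPM at 3 months, 6.76 and 6.12 at 12, 6.99 and 7.68 at 24, and 6.52 and 11.2 at 30 months. Stat2 was above both 3 month libraries in both libraries of 30 months, while Irf9 lay below them in replicate 1 and above them in replicate 2.

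Isg15 encodes a ubiquitin-like protein that is attached to many targets. Usp18 encodes the protease that removes this protein and that also dampens the receptor, and Trim25 a ubiquitin ligase that activates RIG-I. Isg15 was at 0.540 and 0.464 CPM at 3 months, 0.526 and 0.312 at 12, 0.824 and 0.740 at 24, and 0.373 and 2.03 at 30 months. The libraries of 30 months thus held one of the lowest levels and the highest, 5.44 times apart. Usp18 was at 3.35 and 3.04 CPM at 3 months, 2.88 and 3.33 at 12, 3.62 and 2.47 at 24, and 2.83 and 5.49 at 30 months. Trim25 was at 12.3 and 12.8 CPM at 3 months, 12.3 and 11.4 at 12, 14.3 and 8.67 at 24, and 12.3 and 16.1 at 30 months. In both, replicate 1 of 30 months lay within the range of the younger libraries.

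The IFIT proteins bind viral RNA and block its translation. Ifit2 was at 5.36 and 4.54 CPM at 3 months, 3.51 and 4.0 at 12, 5.65 and 6.97 at 24, and 4.97 and 11 at 30 months. Ifit3 was at 3.59 and 2.63 CPM at 3 months, 1.71 and 3.61 at 12, 4.85 and 4.31 at 24, and 3.45 and 12.1 at 30 months. Ifit1 was at 1.81 and 1.67 CPM at 3 months, 1.38 and 2.05 at 12, 3.45 and 3.35 at 24, and 2.09 and 6.86 at 30 months. All 3 were higher in both 24 month libraries than in both 12 month and both 3 month libraries, and higher still in replicate 2 of 30 months. Ifit3b, the neighbouring copy, did not follow them. It was at 4.86 and 4.47 CPM at 3 months, 3.33 and 5.71 at 12, 3.66 and 4.97 at 24, and 3.08 and 4.70 at 30 months, with its highest level in replicate 2 of 12 months. The ratio between the libraries of 30 months was 3.51 for Ifit3 and 1.53 for Ifit3b. Of all stretches of 50 bases in the annotated transcripts, 51.2% of those of Ifit3 also stood in Ifit3b, and 45.0% of those of Ifit3b also stood in transcripts of another gene, so reads could be assigned to neither or to the wrong copy, and both values are uncertain.

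The OAS family makes the short RNA messenger that turns on RNase L, and its 5 members had the largest median in replicate 2 of 30 months, 1.57 above 3 months on the log2 scale, against -0.12 in replicate 1. Oas2 was at 3.05 and 2.58 CPM at 3 months, 1.87 and 1.68 at 12, 2.07 and 2.20 at 24, and 1.71 and 5.6 at 30 months. Oas3 was at 0.346 and 0.204 CPM at 3 months, 0.292 and 0.273 at 12, 0.594 and 0.253 at 24, and 0.242 and 1.05 at 30 months. Oasl2, an OAS-like gene, was at 2.44 and 2.58 CPM at 3 months, 1.93 and 2.5 at 12, 3.60 and 3.25 at 24, and 2.5 and 7.54 at 30 months. For Oas2 and Oas3 replicate 1 of 30 months lay below the mean of 3 months, and Oasl2 was level with it, while replicate 2 was the highest library for each. Oasl1, another OAS-like gene, was at 1.71 CPM in replicate 2 of 30 months, against 0.312 to 0.920 CPM in the other 7. Oas1a was at 1.88 CPM there, against 0.409 to 0.886 CPM, but 57.6% of its 50-base stretches also stand in Oas1g, so its counts are uncertain.

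Other effectors block viruses at entry, replication or budding. Rsad2, which encodes viperin, an enzyme that makes a chain-terminating nucleotide, was at 4.15 and 3.24 CPM at 3 months, 2.20 and 2.67 at 12, 5.96 and 2.88 at 24, and 2.22 and 10.04 at 30 months. Bst2, which encodes tetherin, a protein that holds budding virions at the cell surface, was at 5.06 and 5.04 CPM at 3 months, 5.12 and 4.91 at 12, 4.73 and 4.42 at 24, and 4.70 and 10.8 at 30 months. Eif2ak2, which encodes the RNA-activated kinase PKR, was at 6.91 and 5.80 CPM at 3 months, 5.34 and 6.40 at 12, 6.40 and 8.10 at 24, and 5.56 and 9.36 at 30 months. Bst2 was the steadiest of these, with 7 libraries between 4.42 and 5.12 CPM and the eighth 2.10 times the highest of them. Rtp4, a receptor-transporting protein gene that interferon induces, was at 4.74 CPM in replicate 2 of 30 months, against 1.33 to 2.18 CPM elsewhere, and Trim30a, a gene of the tripartite motif family, at 8.80 CPM, against 3.57 to 5.27 CPM. Mx1, a dynamin-like GTPase that acts on influenza viruses and is defective in many laboratory strains, broke the pattern, with its highest level of 1.90 CPM in replicate 1 of 24 months and 0.813 and 1.32 CPM at 30 months. Mx2, annotated as a polymorphic pseudogene, was at 1.88 CPM in replicate 2 of 30 months and at 1.40 CPM in replicate 1 of 24 months, and at most 0.864 CPM in the other 6.

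Parp9 and Dtx3l encode a pair of proteins that work together as a ubiquitin ligase, and Parp14 a larger enzyme that attaches ADP-ribose to proteins. Parp14 was at 20.1 and 17.5 CPM at 3 months, 17.7 and 15.7 at 12, 19.6 and 18.8 at 24, and 18.1 and 33.1 at 30 months. Dtx3l was at 15.6 and 12.8 CPM at 3 months, 14.4 and 13.8 at 12, 17.1 and 19.4 at 24, and 17.4 and 18.3 at 30 months. Parp14 thus had 1 high library, whereas Dtx3l was higher in all 4 libraries of 24 and 30 months than in all 4 of 3 and 12 months. Parp9 was at 12.9 CPM in replicate 2 of 30 months, against 7.59 to 11.1 CPM in the others. Dtx3l and Parp9 overlap on opposite strands, and no source used here says whether counting used the strand, so the gene behind a read of the overlap is uncertain.

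The 6 interferon-inducible GTPases, which gather on vacuoles that hold bacteria or parasites and which in mice respond strongly to interferon gamma, differed among themselves. Of the 6, 5 were highest in replicate 2 of 30 months, as in the other roles, but 4 were above all younger libraries in both libraries of 30 months. Igtp was at 8.66 and 7.77 CPM at 3 months, 8.22 and 8.03 at 12, 12.6 and 11.6 at 24, and 13.3 and 13.9 at 30 months. Every library of 24 and 30 months was higher than every library of 3 and 12 months, and the libraries of 30 months were only 1.04 times apart. Iigp1 was at 9.98 and 8.83 CPM at 3 months, 5.57 and 6.81 at 12, 9.69 and 11.2 at 24, and 16.3 and 12.3 at 30 months, and so was highest in replicate 1 of 30 months and lowest at 12 months. Irgm1 was at 12.8 and 10.8 CPM at 3 months, 13.9 and 11.4 at 12, 12.8 and 13.6 at 24, and 14.2 and 16.5 at 30 months. Gbp7 was at 15.3 and 15.6 CPM at 3 months, 8.55 and 11.7 at 12, 9.98 and 11.9 at 24, and 13.9 and 17.1 at 30 months, lower in all 4 libraries of 12 and 24 months than in those of 3 and 30. Gbp3 was at 5.80 and 9.62 CPM at 30 months, against 3.19 to 5.79 CPM in the 6 younger libraries. Gbp2 was at 7.12 and 10.6 CPM at 30 months, against 4.93 to 7.43 CPM in the younger ones. Gbp3 thus cleared the younger range in both libraries, but in replicate 1 only narrowly, and Gbp2 in replicate 2 only. In Igtp, 11.8% of the 50-base stretches also stand in the overlapping gene Irgm2.

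The remaining 4 genes differed among themselves. Ifi27l2a, a gene for a small protein that interferon induces strongly, was at 12.9 and 7.38 CPM at 3 months, 10.4 and 12.1 at 12, 11.8 and 5.84 at 24, and 6.2 and 14.5 at 30 months, and its replicates were so far apart at 3, 24 and 30 months that no age stood out. Ifi35, which encodes a partner of the protein NMI, was at 10.2 and 8.79 CPM at 3 months, 9.21 and 9.07 at 12, 8.31 and 7.68 at 24, and 10.2 and 10.2 at 30 months, and was the only one of the 39 to be above all younger libraries in replicate 1 of 30 months alone, by a margin that 3 digits do not show. Ifi44 was at 1.69 and 1.06 CPM at 3 months, 0.370 and 0.351 at 12, 0.843 and 0.974 at 24, and 0.703 and 4.12 at 30 months. It had the widest ratio between libraries of 30 months, 5.86, and the lowest 12 month levels relative to 3 months. Xaf1, a gene linked to cell death, was at 2.83 and 5.41 CPM at 30 months, against 1.71 to 3.05 CPM in the younger libraries.

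**Figure D2:**
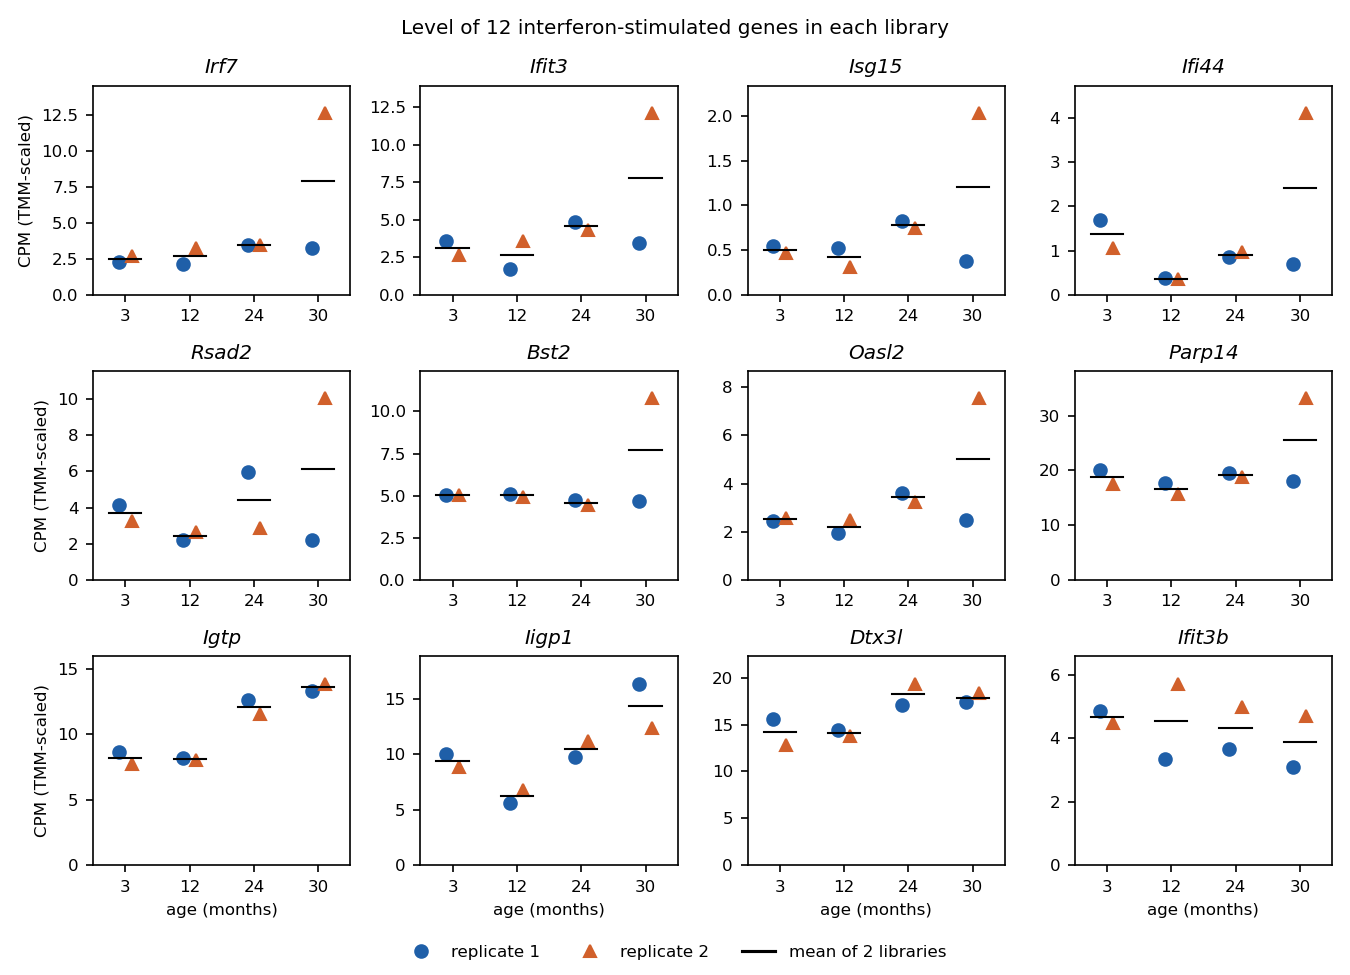
Level (CPM, TMM-scaled) of 12 of the genes in each library by age in months, circles for replicate 1, triangles for replicate 2 and a line at the mean of 2 libraries. Irf7, Ifit3, Isg15, Ifi44, Rsad2, Bst2, Oasl2 and Parp14 have 1 high library at 30 months, as in Irf7 with 12.6 against 3.25 CPM, while for Igtp both libraries of 30 months lie at 13.3 and 13.9 CPM.

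How much rested on 1 library at 30 months was counted gene by gene. In 31 of the 39 genes replicate 2 of 30 months, and not replicate 1, lay above all 6 younger libraries, against 13.7% of all genes tested. Only Ifi35 had this in replicate 1 alone, against 7.71% of all genes. Both libraries of 30 months lay above all younger ones in 4 genes, the GTPase genes Gbp3, Igtp, Irgm1 and Iigp1, against 4.28% of all genes. In Gbp3 the margin of replicate 1 was narrow, with 5.80 CPM against 5.79 CPM in replicate 2 of 24 months. For Ifit3b, Mx1 and Dtx3l neither did. Replicate 2 of 30 months was more than 2 times as high as replicate 1 in 18 genes (46.2%), against 4.46% of all genes. In either direction, replicates were more than 2 times apart in 0 of the 39 genes at 3 months, against 3.71% of all genes, in 1 at 12 months, against 6.14%, in 4 (10.3%) at 24 months, against 7.69%, and in 18 at 30 months, against 6.56%. The level in replicate 2 of 30 months was over 1.5 times the highest of the other 7 libraries in 21 genes, against 2.02% of all genes, and over 2 times in 9, against 0.368%. These 9 were Irf7, Ifit3, Isg15, Ifi44, Dhx58, Rtp4, Oas1a, Bst2 and Oasl2.

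By role, the IFIT family had a median log2 ratio to 3 months of 1.55 in replicate 2 and 0.086 in replicate 1 of 30 months. It was 1.09 and -0.12 for the other antiviral effectors, and 1.00 and 0.13 for the sensors, in the same order of libraries. For the factors of ISG15 conjugation it was 0.77 and -0.17, for the 4 remaining genes 0.78 and -0.29, for the transcription factors 0.65 and 0.11, and for the PARP9 and DTX3L group 0.52 and -0.047. The GTPases, with 0.52 and 0.30, were the role with the smallest gap between the libraries of 30 months.

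**Figure D3:**
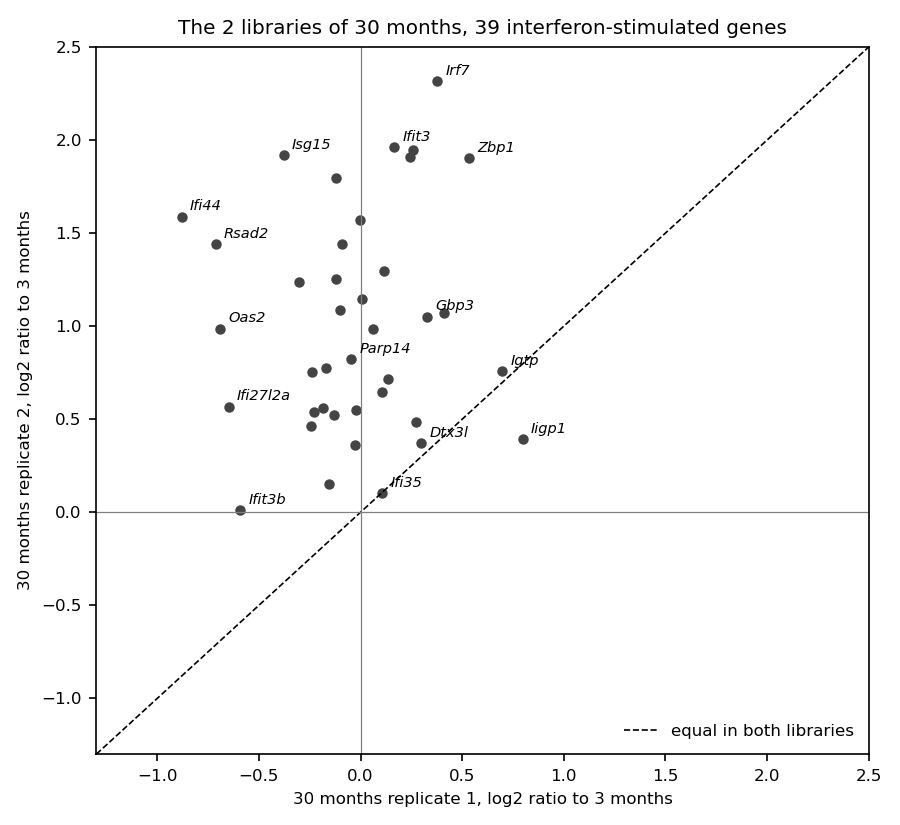
Log2 ratio to 3 months of each of the 39 genes (points) in replicate 1 (horizontal axis) and replicate 2 (vertical axis) of 30 months, with a dashed line where both are equal. Most points lie far above the line, such as Irf7, whereas Igtp and Ifi35 lie on or near it and Iigp1 below it.

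In edgeR's quasi-likelihood test with Benjamini-Hochberg adjustment over 19571 genes, 0 of the 39 genes passed an adjusted p of 0.05 between 30 and 3 months, where 0.148% of all genes did. DESeq2 called 1 of them, and 1.09% of all genes, and limma-voom called 0, and 0.112% of all genes. At an unadjusted p of 0.05, 10 were higher and 0 lower at 30 months, against 5.18% and 3.34% of all genes. Their median log2 fold change was 0.61, with 38 of 39 positive, and the median over all genes was 0.0093. Both libraries of 30 months lay above both of 3 months in 12 genes (Dhx58, Zbp1, Stat2, Irf7, Ifit1, Oasl1, Mx1, Dtx3l, Gbp3, Igtp, Irgm1 and Iigp1), against 21.1% of all genes, and below in 0, against 20.2%. Igtp had the lowest adjusted p, 0.145, with a log2 fold change of 0.73 (SE 0.15). Irf7 had the largest log2 fold change, 1.67 (SE 0.54), with an adjusted p of 0.409. Zbp1 followed with 1.46 (SE 0.47), Oasl1 with 1.41 (SE 0.55) and Ifit1 with 1.37 (SE 0.48), with adjusted p-values of 0.375, 0.523 and 0.456.

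Leaving out each library of 30 months in turn gave 2 different pictures. Without replicate 1, all 39 log2 fold changes between 30 and 3 months were positive, against 50.3% of all genes. Irf7 was at 2.33, Ifit1 at 1.98 and Oasl2 at 1.58 in that fit. Without replicate 2, 18 were positive and 21 negative, near the share of all genes, of which 48.9% were positive. Isg15 had a log2 fold change of 1.28 with both libraries, 2.01 without replicate 1 and -0.42 without replicate 2. Ifi44 had the same signs, with 0.83, 1.59 and -0.95, Rsad2 with 0.74, 1.44 and -0.73, and Oas2 with 0.39, 0.99 and -0.71. Irf7, Ifit3 and Oasl2 were at 0.38, 0.16 and 0.00024 without replicate 2. Igtp, with 0.76 without replicate 1 and 0.70 without replicate 2, kept its size in both fits, and Iigp1 was at 0.39 and 0.80. With 1 library left at 30 months, that library is assumed to vary like those of the other ages.

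The 12 month libraries held the lowest levels. Of the 39 genes, 16 were lowest in replicate 1 of 12 months, against 8.49% of all genes, and 10 in replicate 2, against 14.7%, so that 26 had their lowest level at 12 months, where 23.2% of all genes had theirs. Between 12 and 3 months, both libraries of 12 months lay below both of 3 months in 17 genes, against 19.2% of all genes, and above in 0, against 19.3%. The median log2 fold change was -0.18, and 7 of 39 were positive. In a fit with a term for the 2 sets of libraries the median was -0.013. Of the 39 genes, 0 passed the edgeR test, DESeq2 or limma-voom, where 0.0409%, 0.374% and 0.0358% of all genes did, in the same order. At an unadjusted p of 0.05, 3 of the 39 were lower, against 2.34% of all genes. Those 3 were Gbp7, at -0.61 (SE 0.19), Iigp1, at -0.60 (SE 0.19), and Ifi44, at -1.91 (SE 0.75).

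**Figure D4:**
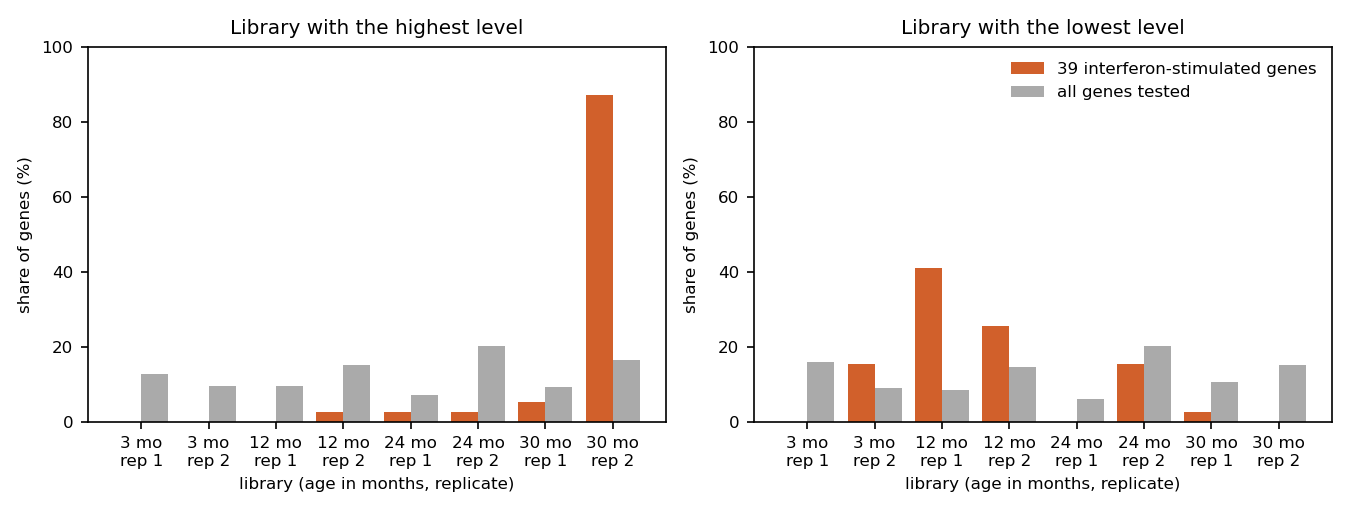
Share of genes (percent) whose highest level (left) or lowest level (right) was in each library, orange for the 39 genes and grey for all 19571 genes tested. Orange reaches 87.2% in replicate 2 of 30 months on the left, and on the right 16 and 10 of the 39 genes fall in the 12 month libraries.

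Against 12 months the differences at later ages were wider. At 24 months both libraries lay above both of 12 months in 28 of the 39 genes, against 14.0% of all genes, and below in 2, Bst2 and Ifi35, also against 14.0%. The median log2 fold change was 0.38, with 32 of 39 positive. Again 0 of the 39 passed edgeR's test, DESeq2 or limma-voom, where 0.0%, 0.0204% and 0.0% of all genes did. At an unadjusted p of 0.05, 5 were higher, against 1.60% of all genes. These were Mx1, at 1.91 (SE 0.54), Iigp1, at 0.76 (SE 0.19), Ifit2, at 0.75 (SE 0.33), Igtp, at 0.58 (SE 0.15), and Dtx3l, at 0.37 (SE 0.15). At 30 months both libraries lay above both of 12 months in 24 genes, against 16.1% of all genes, and the median was 0.81, with 37 of 39 positive. Here 23 were higher at an unadjusted p of 0.05, against 3.43% of all genes, and 0 lower, yet 0 passed edgeR's test, where 0.00511% of all genes did. DESeq2 called 2, and 0.336% of all genes, and limma-voom 0, and 0.00511% of all genes. Iigp1 came nearest, with a log2 fold change of 1.21 (SE 0.19) and an adjusted p of 0.205. In all, 21 of the genes were above 12 months without overlap at both later ages, against 6.54% of all genes. The comparisons with 12 months share its 2 libraries.

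At 24 months the genes lay on both sides of 3 months, in shares not far from those of all genes. Both libraries lay above both of 3 months in 11 genes, among them Zbp1, Irf7, Isg15, Ifit1, Ifit2 and Ifit3, against 20% of all genes, and below in 7, among them Oas2, Bst2, Gbp7 and Ifi44, against 19.4%. The median log2 fold change was 0.14. Here too 0 passed edgeR's test, DESeq2 or limma-voom, where 0.102%, 0.693% and 0.0511% of all genes did. At an unadjusted p of 0.05, 2 were higher, against 4.23% of all genes, and 1 lower, against 3.33%. Between 30 and 24 months both older libraries lay above both younger ones in 8 genes, against 13.3% of all genes: Dhx58, Ifi35, Gbp2, Gbp3, Gbp7, Igtp, Irgm1 and Iigp1, of which 6 are GTPase genes. The median was 0.45, and 0 passed edgeR's test, DESeq2 or limma-voom, where 0.0% of all genes passed each. At an unadjusted p of 0.05, 7 were higher, against 2.13% of all genes. Over all 4 ages at once, 0 passed the edgeR test, where 0.0613% of all genes did, and the lowest adjusted p was 0.232. DESeq2 called 4, and 1.18% of all genes, and limma-voom 0, and 0.0409% of all genes. An unadjusted p below 0.05 was found for 12 of the 39 and for 5.66% of all genes.

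The calls depended on the fit for a few genes. Between 30 and 3 months, the fit without a low count filter called Zbp1 and Igtp, where it called 1.12% of all genes, DESeq2 called Irf7, where it called 1.09%, and a fit that also held a term for the 2 sets of libraries called Igtp (log2 fold change 0.77, adjusted p = 0.0231), where it called 2.13%. Between 30 and 12 months, the fit without a filter called 7 of the genes and 0.414% of all genes. DESeq2 called Ifi44 and Iigp1 there and 0.336% of all genes. The fit with that term called Iigp1 (1.21, adjusted p = 0.0105) and 0.281% of all genes. Without replicate 1 of 30 months, Ifi44 (3.5, adjusted p = 0.0173) and Irf7 (2.23, adjusted p = 0.0248) passed in edgeR's test, with 0.0486% of all genes. Between 24 and 12 months the fit without a filter called Mx1 and 0.0506% of all genes. Over all ages it called 8 of the genes and 1.40% of all genes, and the fit with the set term called 2 and 1.04%.

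Since the high library belongs to the set with kidney transcripts, the genes were also compared within sets. Replicate 2 of 30 months was above the mean of 3 months for all 39 genes, with a median difference in log2 CPM of 0.98, and above replicate 1 of 12 months for all 39, with a median of 1.14. It was above replicate 1 of 24 months for 38, with a median of 0.76. In the set without kidney transcripts, which holds no library of 3 months, replicate 1 of 30 months was above replicate 2 of 12 months for 29 genes, with a median of 0.11, and above replicate 2 of 24 months for 14, with a median of -0.089. The difference between 24 and 12 months had a median of 0.45 in the set with kidney transcripts and 0.33 in the other, with 36 and 30 of the 39 genes higher at 24 months. Of all genes tested, 48.7% to 51.5% were higher in these same comparisons. Each of these within-set differences rests on 1 library per age, apart from 3 months, and was not tested.

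The genes around the pathway were measured from lists of their symbols. Interferon genes themselves were barely detected. Of 20 genes for interferons alpha, beta, gamma, epsilon, kappa and lambda, 13 had no read in any library, Ifnb1 among them, and all 20 together summed to 0.0390 to 0.188 CPM, with 0.188 CPM in replicate 2 and 0.0439 CPM in replicate 1 of 30 months. Most of these reads were of Ifnk, with 39 over the 8 libraries and 9 at most in 1, against 8 for all the others together. At this depth, transcripts of the other interferon genes were not detectable above the floor of 3 reads in any library.

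Of 8 tested receptor subunit and kinase genes, 0 passed edgeR's test in any comparison, and their median log2 fold change between 30 and 3 months was -0.087. Jak2, a kinase of the interferon gamma receptor, had the lowest p, at -0.89 (SE 0.34, adjusted p = 0.516), then Tyk2 with 0.37 (SE 0.16, adjusted p = 0.574) and Ifngr2 with -0.30 (SE 0.16, adjusted p = 0.666). Jak2 was at 58.8 and 36.4 CPM at 30 months, against 84.0 and 92.6 CPM at 3 months. Of 16 genes for upstream sensors, adaptors and factors, 0 passed, and the median was 0.20. Those with the lowest p were Irf8, a factor of macrophages and dendritic cells, with 0.65 (SE 0.23), Tlr9, a receptor for bacterial and viral DNA, with 0.71 (SE 0.38), and Irf1, a factor downstream of interferon gamma, with 0.33 (SE 0.18). Irf8 and Irf1 were highest in replicate 1 of 30 months and not in replicate 2. Of 8 tested negative regulators, 0 passed and the median was 0.23, with Socs3, an inhibitor of JAK signalling, at 0.98 (SE 0.28), the phosphatase gene Ptpn6 at 0.67 (SE 0.33) and the RNA-editing gene Adar at 0.34 (SE 0.22). Trex1 was listed at 0 in all libraries, and the reason for this was not tested.

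Of a further 46 tested interferon-induced genes outside the 39, 35 were also highest in replicate 2 of 30 months. Their median log2 ratio to 3 months was -0.14 and -0.28 in the libraries of 12 months, 0.20 and -0.10 in those of 24 and 0.071 and 0.61 in those of 30. Their median log2 fold change was 0.40 between 30 and 3 months, and 0 passed edgeR's test in any comparison. The 3 with the lowest p were Cxcl10, Irgm2 and Gbp5, and in each both libraries of 30 months were above both of 3 months. Cxcl10, a chemokine gene that interferon gamma induces, was at 0.259 and 0.389 CPM at 3 months, 0.370 and 0.390 at 12, 0.900 and 1.60 at 24, and 2.46 and 0.940 at 30 months. Its log2 fold change was 2.36 (SE 0.52), its adjusted p 0.189. It was highest in replicate 1 of 30 months. Irgm2, the GTPase gene that overlaps Igtp, was at 15.9 and 16.0 CPM at 30 months, against 10.8 and 11.2 CPM at 3 months, with a fitted log2 difference of 0.54 (SE 0.13) and an adjusted p of 0.240. Gbp5 was at 5.62 and 6.52 CPM at 30 months, against 3.59 and 4.01 CPM at 3 months, with 0.68 (SE 0.20, adjusted p = 0.338).

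Markers of macrophages moved with the 39 genes in the high library. The summed level of 13 macrophage and monocyte genes was 390.0 CPM in replicate 2 of 30 months, 214 CPM in replicate 1 and 136 to 228 CPM in the 6 younger libraries, and all 13 were highest in replicate 2 of 30 months. Lyz2, which encodes lysozyme, was at 64.4 and 138 CPM at 30 months, against 40.3 to 63.7 CPM in the younger libraries, and Adgre1, the F4/80 antigen gene, was at 8.0 and 17.0 CPM, against 3.84 to 8.43 CPM. The median ratio of replicate 2 of 30 months to the highest of the other 7 libraries was 1.78 for these 13 genes and 1.57 for the 39 interferon-stimulated genes. The macrophage markers summed to 226 and 147 CPM at 12 months and to 215 and 136 CPM at 24 months. These gaps went with the 2 sets of libraries. In the set with kidney transcripts the younger libraries held 199 to 228 CPM. In the set without them the sums were 147 CPM at 12, 136 CPM at 24 and 214 CPM at 30 months. The 8 fibre genes had their lowest sum, 220031 CPM, in replicate 2 of 30 months. Their sums were 240318 to 311527 CPM in the other libraries with kidney transcripts. In the libraries without them they were 281746 to 369717 CPM, with 301208 CPM in replicate 1 of 30 months. The part that cell numbers play in the levels of the 39 genes was not tested.

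The summed markers of other blood cells were each higher in another library. Summed T and NK cell genes, 11 in all, were at 1.95 CPM in replicate 2 and 2.33 CPM in replicate 1 of 30 months, with 1.25 to 3.00 CPM in the younger libraries, and the defining markers Cd3d and Cd3g were at most at 0.113 CPM in any library. The 8 B and plasma cell genes summed to 79.1 CPM in replicate 2 and 115 CPM in replicate 1 of 30 months, with 45.5 to 195 CPM in the younger libraries. The 4 genes listed for plasmacytoid dendritic cells, the main makers of interferon alpha, summed to 4.04 CPM in replicate 2 and 3.43 CPM in replicate 1 of 30 months, with 2.05 to 5.53 CPM in the younger libraries, with Siglech at 1.24 and 1.08 CPM in these 2 libraries. The sums of the 4 genes were 4.04 to 5.53 CPM in the set with kidney transcripts and 2.05 to 3.43 CPM in the other set. Whether they measure plasmacytoid dendritic cells alone was not tested. The 7 neutrophil genes summed to 6.95 CPM in replicate 2 and 10.7 CPM in replicate 1 of 30 months, above the 2.24 to 5.33 CPM of the younger ones. The 7 endothelial genes, markers of vessels rather than blood, summed to 295 CPM in replicate 2 of 30 months, level with the highest younger library, and to 214 CPM in replicate 1, below the 228 to 295 CPM of the younger libraries.

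**Figure D5:**
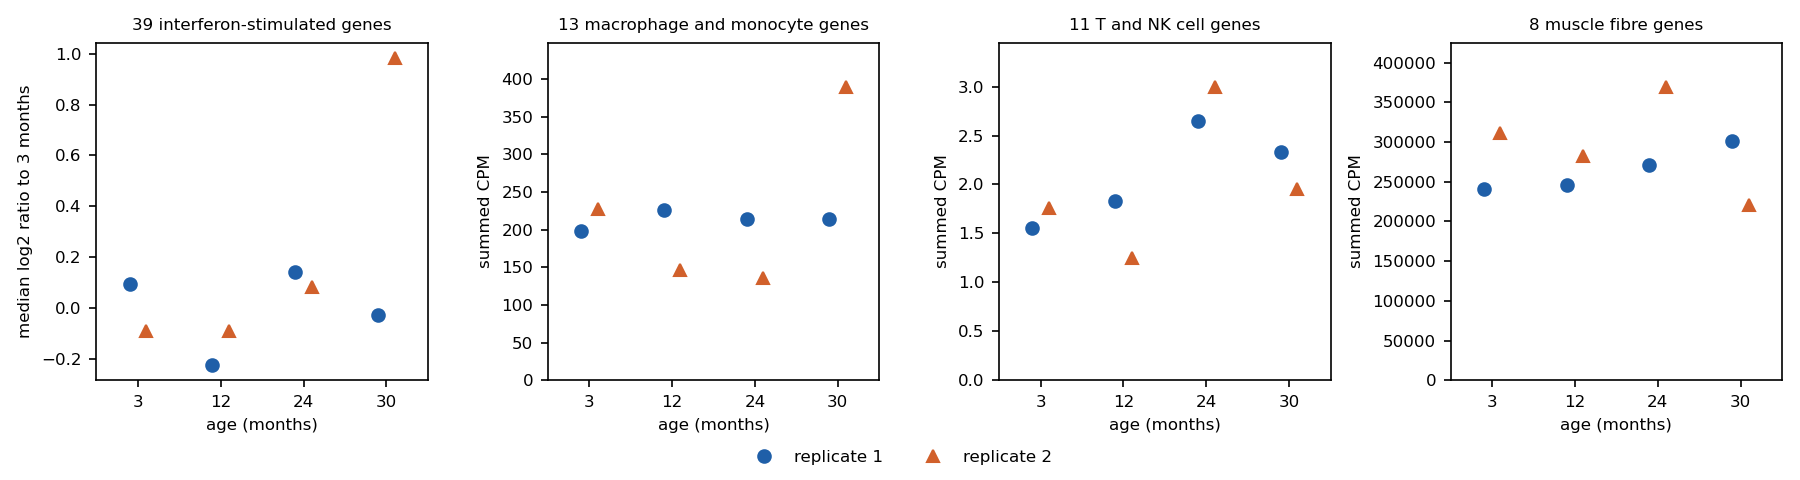
By age in months and library (circles replicate 1, triangles replicate 2), the median log2 ratio to 3 months of the 39 genes, and the summed CPM of 13 macrophage and monocyte, 11 T and NK cell and 8 muscle fibre genes. The 39 genes (0.98) and the macrophage genes (390.0 CPM) are highest in replicate 2 of 30 months, where the fibre genes are lowest (220031 CPM).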

How the data were processed

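Total RNA of whole gastrocnemius was sequenced in 8 libraries, 2 at each of 4 ages. The deposited files hold raw read counts per gene and library. Per the submitters' processing notes, Trimmomatic 0.36, STAR 2.5.2b and featureCounts of Subread 1.5.2 were used with build GRCm38 (mm10). No source used here gives the annotation release or the strand setting of counting. Identifiers were named from GENCODE M21, in which 49056 of 49315 matched.

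Counts were filtered with filterByExpr, scaled by TMM and tested with edgeR 4.0.16 (R 4.3.3), using a robust quasi-likelihood fit with age as a factor over all 8 libraries, 4 residual degrees of freedom, for 6 comparisons between ages and for any age. P-values were adjusted over 19571 genes by the Benjamini-Hochberg method, with calls below 0.05. Ratios to 3 months used log2 of CPM plus 0.05. The alternatives tried were no filter, RLE size factors, library totals without TMM, a filter of 1 CPM in 2 libraries, DESeq2 1.42.0, limma-voom (limma 3.58.1), only the 4 libraries compared, a replicate block, the library set as a term (9 kidney genes summing to above or below 1 CPM, 3 residual degrees of freedom), and each library left out. The test was checked on simulated counts.

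The members, lists and alternatives were chosen with earlier results of these data known. Values in every library are given for the 2 most abundant members of each role, the 6 with the largest ratio between the libraries of 30 months among those at 1 CPM or more in either, and Ifit3 with Ifit3b, and for Ifit1, Igtp and Iigp1, chosen after their values were seen; of other pathway lists, up to 3 genes with the lowest p for 30 against 3 months are named. Members were set beside all genes tested, with no test over the list. Deviations of same-numbered libraries from their age means correlated at -0.36 to 0.26, so the numbers were not taken to pair libraries.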

Additional observations from a re-analysis of the deposited data

How the results depend on the processing

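All 7 counts of called genes stayed at 0 with RLE size factors, library totals alone, a filter of 1 CPM in 2 libraries and limma-voom. In that order, these called 0.148%, 0.128%, 0.134% and 0.112% of all genes between 30 and 3 months. All 6 medians moved by less than the spread between replicates in these fits. With only the 4 libraries compared, which gives no count over all ages, the other 6 counts stayed at 0. There the 6 medians moved as little, and 0.176% of all genes were called between 30 and 3 months. At 30 months the spread was wide, with library medians of -0.028 and 0.98, so it hardly limits comparisons with that age. Between 30 and 3 months, 38 of 39 fold changes were positive with both libraries of 30 months and 18 without replicate 2. With the replicate number as a block, although the labels name nothing that same-numbered libraries share, 0 of the 39 genes were called in any comparison. Between 30 and 3 months, that fit called 0.0664% of all genes, and Gbp7 moved to -0.0054. Without a low count filter the genes called were 2 between 30 and 3 months, 7 between 30 and 12, 1 between 24 and 12 (Mx1) and 8 over all ages. In the same order, 1.12%, 0.414%, 0.0506% and 1.40% of all genes were called. DESeq2 called 1, 2, 0 and 4, and 1.09%, 0.336%, 0.0204% and 1.18% of all genes. It put Irf7 at 1.66 between 30 and 3 months and Ifi44 at 2.74 between 30 and 12. Ifit2 passed between 30 and 12 months without a filter, at 1.08. With a term for the library set, the counts were 1, 1, 0 and 2, against 2.13%, 0.281%, 0.0% and 1.04% of all genes. In that fit the median between 12 and 3 months moved to -0.013, and Gbp7 between 30 and 3 months to -0.050. Limma-voom put Ifi27l2a between 30 and 3 months at -0.011. Each library was also left out in turn, and calls in those fits are left out, since 1 age then rests on 1 library. The median between 24 and 12 months ranged over 0.28 to 0.48 in them. Between 30 and 3 months, leaving out each library gave ranges of -0.10 to 1.09 for Bst2, -0.25 to 0.46 for Ddx58, -0.19 to 0.56 for Eif2ak2, -0.15 to 0.15 for Gbp7, -0.70 to 0.52 for Ifi27l2a, -0.95 to 1.59 for Ifi44, -0.60 to 0.010 for Ifit3b, -0.23 to 0.54 for Irf9, -0.42 to 2.01 for Isg15, -0.71 to 0.99 for Oas2, -0.17 to 1.94 for Oas3, -0.046 to 0.82 for Parp14, -0.73 to 1.44 for Rsad2, -0.025 to 0.36 for Trim25 and -0.17 to 0.78 for Usp18. The lowest of each came without replicate 2 of 30 months, and the highest without replicate 1. Between 30 and 12 months the ranges were -0.093 to 1.10 for Bst2, -0.089 to 0.62 for Ddx58, -0.077 to 0.67 for Eif2ak2, -0.86 to 0.36 for Ifi27l2a, -0.55 to 0.23 for Ifit3b, -0.16 to 2.27 for Isg15, -0.048 to 1.65 for Oas2, -0.22 to 1.88 for Oas3, -0.13 to 2.04 for Rsad2 and -0.13 to 0.82 for Usp18. All values are log2 fold changes unless said to be counts, and the cause of a moved value was not tested beyond the library left out. Precision is limited by the 2 libraries per age, and 7 of the 39 genes averaged below 1 CPM.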
